A study of Homo sapiens with 24 samples.

Results

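The 39 genes described here form the amino acid branch of the integrated stress response, with ATF4 at its centre: 8 transcription factors, 6 feedback and signalling genes, 7 enzymes of serine, glycine and one-carbon metabolism, 7 other enzymes, 8 amino acid transporters and 3 further targets, out of 27274 gene names on the array. They were measured in HCT-116, a human colorectal carcinoma line, in 1 stably transfected clone that carries a Tet repressor and a doxycycline-inducible dominant negative Tcf4 (DN-Tcf4), a form of the Wnt pathway's DNA-binding factor that cannot bind beta-catenin. Cells were left untreated (Ctl), given doxycycline at 4 μg/ml (Doxy), given sodium butyrate at 5 mM for 17.5 hr (NaB), or given both (DoxyNaB). The 4 treatments were each run in 6 experiments, which makes 24 arrays. Every array holds cells of the same clone with both vectors. Members were found as the probes that are not controls and that the array's own annotation assigns to 1 of the 39 symbols, which gave 50 probes, and each gene is shown by the tested probe with the highest mean level. CHAC1, DDIT4, PCK2, DDIT3 and ASNS had already been seen to rise with doxycycline alone and led to the choice of the pathway, so their Doxy/Ctl values are a description with no test. No array of cells without the DN-Tcf4 vector was used here, so a response to doxycycline itself and one to the induced protein cannot be told apart.

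When amino acids run short, when unfolded protein accumulates or when mitochondria fail, kinases phosphorylate the translation factor eIF2, which slows translation in general but favours that of ATF4. ATF4 then pairs with C/EBP proteins and switches on genes that make, import and load amino acids, together with genes that restrain growth signalling or, if the stress lasts, promote cell death. Because ATF4 is controlled largely at translation, the RNA of its targets is often a closer readout of the pathway than its own RNA. Butyrate is a product of fibre fermentation in the colon and an inhibitor of histone deacetylases.

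Many ATF4 targets carry in their promoter the C/EBP-ATF response element, whose core letters are TGATGNAA. RefSeq promoter windows of GRCh38.p14, each running from 250 bases before to 50 bases after a gene's start, were found for 31 of the 39 members, and the core was searched on both strands. It was present for 10 of the 31, namely ATF3, CEBPG, JDP2, CHAC1, MTHFD1L, ASNS, SLC3A2, SLC7A1, SLC1A4 and SLC1A5, against 4.46% of all 27305 genes in the table. Counted by window, it was in 12 of the 53 windows of members (22.6%), against 3.62% of all 35116 windows. The windows of 5 members are shown in part, 5′ to 3′ in the direction of the gene with the core in capitals, because these genes include CHAC1 and ASNS, chosen for their rise, and cover a bZIP factor that fell with butyrate, a dimer partner of ATF4 and a transporter that fell in DoxyNaB/NaB. The first base of the core lay 209 bases before the start in CHAC1, where it reads on the opposite strand, 68 in ASNS, 16 in JDP2, 42 in CEBPG and 97 in SLC1A5.
CHAC1 (chr15:40953221-40953325, plus strand): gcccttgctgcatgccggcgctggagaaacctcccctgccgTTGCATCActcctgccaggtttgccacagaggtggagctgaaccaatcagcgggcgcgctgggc
ASNS (chr7:97872413-97872532, minus strand): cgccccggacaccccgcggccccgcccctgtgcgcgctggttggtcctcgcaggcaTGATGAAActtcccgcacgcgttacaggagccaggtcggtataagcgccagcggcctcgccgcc
JDP2 (chr14:75427995-75428024, plus strand): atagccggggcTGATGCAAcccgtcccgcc
CEBPG (chr19:33374060-33374089, plus strand): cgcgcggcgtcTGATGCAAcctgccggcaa
SLC1A5 (chr19:46784893-46784922, minus strand): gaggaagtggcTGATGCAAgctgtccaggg

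The level of a probe is its processed signal divided by the array's 75th percentile, in log2, so that 0 is the brightness of that percentile, and a change of 1 is a doubling. Levels can be compared between arrays for 1 gene but not between genes. A probe entered the tests if some treatment had it well above background in all 6 experiments, which held for 18984 probes and 36 of the 39 members. A gene was called changed at a Benjamini-Hochberg adjusted p under 0.01 in limma, adjusted over all 18984 probes. CBS, STC2 and VLDLR did not pass. CBS, an enzyme that makes cystathionine from homocysteine, was well above background on 5 arrays of each treatment, STC2, a secreted glycoprotein, on 3 or 4, and VLDLR, a lipoprotein receptor, on 2 or 3. NUPR1, ALDH1L2, SLC1A4 and SLC6A9 passed only through the treatments in which they were brightest, SLC7A11 missed 1 DoxyNaB array, and 31 members were well above background on all 24 arrays.

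**Figure D1:**
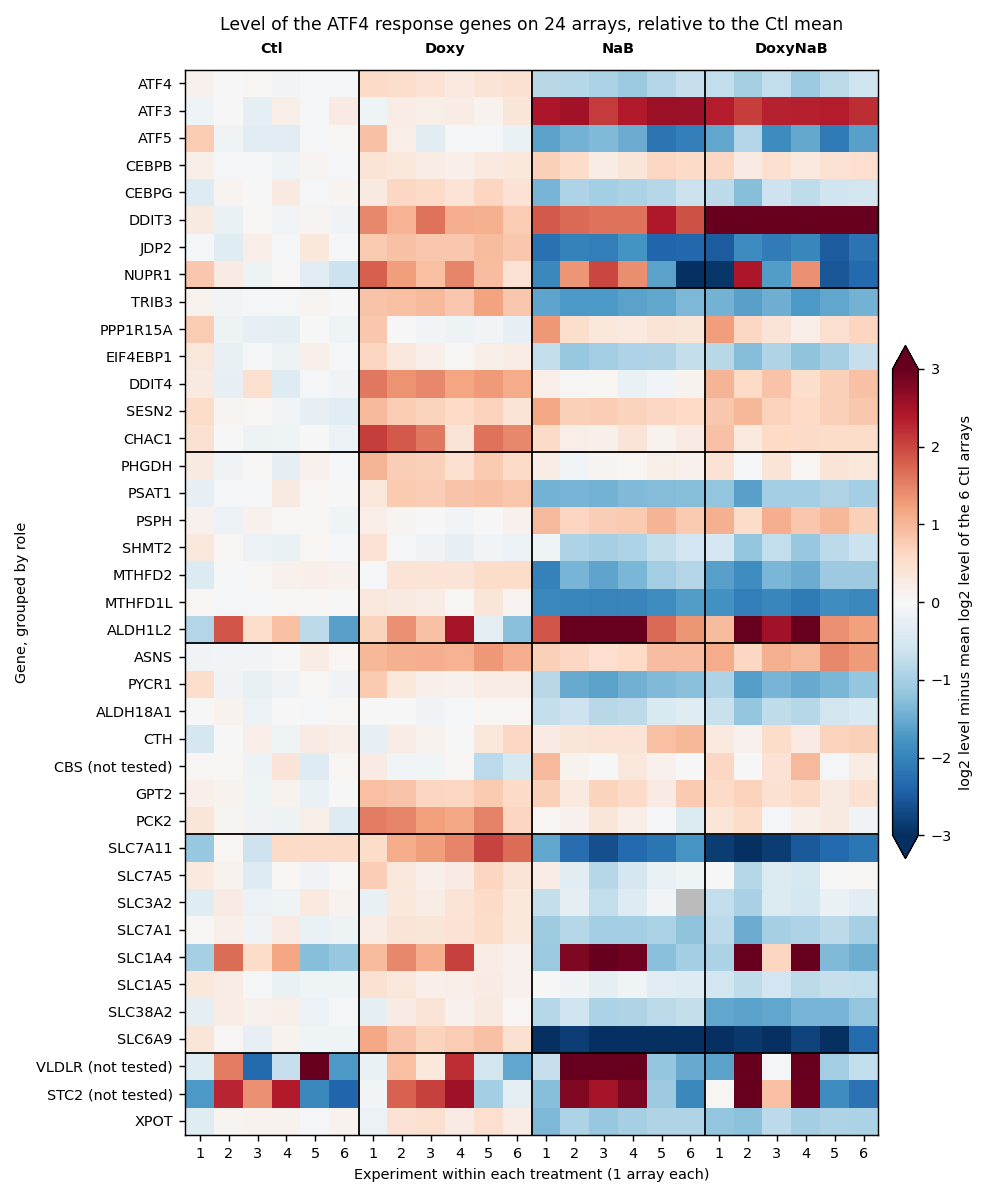
Level of each of the 39 genes (rows, grouped by role with black lines) on each of the 24 arrays (columns, experiments 1 to 6 within each treatment), as log2 level minus the mean of the 6 Ctl arrays; red is higher, blue lower, and colours end at ±3. Grey marks the SLC3A2 spot left out for its outlier flag on the NaB array of experiment 6. The patchy rows (NUPR1, ALDH1L2, SLC1A4, VLDLR, STC2) are probes near background in at least some treatments.

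The cells carried the markers of an epithelial line, with 7 of 8 epithelial markers well above background on all arrays and 1 of 6 fibroblast, 1 of 5 leukocyte and 0 of 4 endothelial markers. The induction was followed with probes for TCF7L2, the gene of Tcf4, which may read the cells' own transcript as well. With butyrate present, doxycycline raised the probes starting at positions 114915968 and 114901475 of chromosome 10 (NCBI36) by 4.46 ± 0.42 and 2.96 ± 0.36 (SE, n = 6), whereas without butyrate the changes of 0.30 ± 0.42 and -0.17 ± 0.36 did not pass the test. The remaining probe, starting at 114714311, changed by 0.36 ± 0.25 without butyrate, which did not pass, and fell by 1.25 ± 0.25 with it. The share of spots well above background was 78.4% to 88.1% in experiments 2 to 4 and 52.7% to 62.6% in experiments 1, 5 and 6. Experiments 2 to 4 shared a scan date, as did 5 and 6. In experiment 1, Ctl and Doxy lay on 1 slide, and NaB and DoxyNaB on another with a different scan date. In that experiment a response to butyrate cannot be told apart from slide and scan date. The negative controls stood at 48.4 to 115 signal units on 22 arrays and at 161 and 249 on the NaB array of experiment 3 and the DoxyNaB array of experiment 2.

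Without butyrate, the levels of 34 of the 36 members tested were higher with doxycycline than without it. This is the comparison that led to the choice of these genes, so it is given as a description. CHAC1, which degrades glutathione, DDIT4, an inhibitor of mTORC1, PCK2, the mitochondrial phosphoenolpyruvate carboxykinase, DDIT3 (also named CHOP), a transcription factor linked to cell death, and ASNS, which makes asparagine, stood 1.49 ± 0.16, 1.32 ± 0.08, 1.25 ± 0.10, 1.17 ± 0.13 and 1.09 ± 0.08 higher in log2 in Doxy than in Ctl (SE, n = 6). Each of them was higher in all 6 experiments. The probes lie, in NCBI36, at chr15:39035923-39035982 (CHAC1), chr10:73705369-73705428 (DDIT4), chr14:23639241-23641839 (PCK2), chr12:56197467-56197793 (DDIT3) and chr7:97319397-97319456 (ASNS). The other probe of CHAC1 gave 1.86 ± 0.08. On the probe shown, the Doxy array of experiment 4 read 1.29 and the other Doxy arrays at least 2.33, and without that experiment the CHAC1 difference was 1.69.

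The lowest, median and highest levels of CHAC1 over the 6 arrays of a treatment were 0.71, 0.82 and 1.35 in Ctl, 1.29, 2.50 and 2.96 in Doxy, 0.99, 1.12 and 1.47 in NaB and 1.18, 1.46 and 1.76 in DoxyNaB. Those of DDIT4 were 1.02, 1.33 and 1.88 in Ctl, 2.50, 2.71 and 2.97 in Doxy, 1.21, 1.45 and 1.59 in NaB and 1.92, 2.19 and 2.42 in DoxyNaB. Doxy stood above every other treatment for DDIT4, and for CHAC1 with the exception of that 1 array. PCK2 lay at -0.93, -0.55 and -0.18 in Ctl, 0.10, 0.80 and 1.00 in Doxy, -0.97, -0.46 and -0.18 in NaB and -0.66, -0.32 and 0.01 in DoxyNaB. Its Doxy arrays were all above those of the other treatments, which overlapped one another.

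DDIT3 differed from these genes in its order, with levels of -0.49, -0.33 and -0.04 in Ctl, 0.46, 0.78 and 1.32 in Doxy, 1.32, 1.46 and 2.11 in NaB and 2.69, 3.17 and 3.52 in DoxyNaB, so that each treatment lay above the one before it, with the highest Doxy and the lowest NaB array both at 1.32. ASNS lay at 3.48, 3.56 and 3.82 in Ctl, 4.58, 4.66 and 4.90 in Doxy, 4.09, 4.26 and 4.52 in NaB and 4.21, 4.68 and 5.04 in DoxyNaB. Its Ctl arrays were below those of all the other treatments, and its Doxy arrays lay within the range of DoxyNaB.

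**Figure D2:**
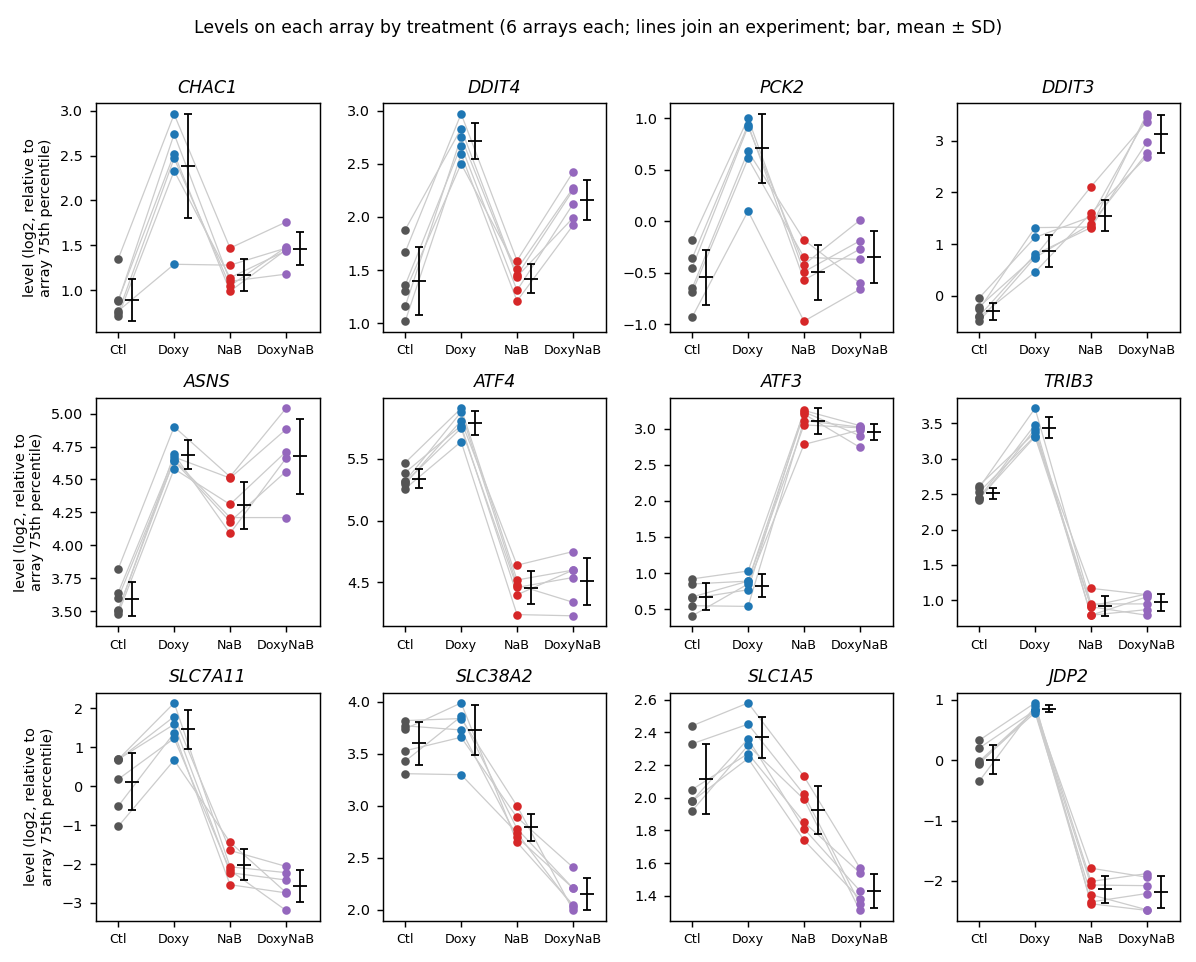
Level of 12 genes on every array (y axis, log2 relative to the array's 75th percentile; each panel has its own scale) by treatment (x axis), with grey lines joining the arrays of an experiment and black bars for the mean ± SD of 6 arrays. The first 5 panels are the genes chosen for their rise in Doxy/Ctl. DDIT3 was highest in DoxyNaB, at 2.69 to 3.52, whereas TRIB3, JDP2 and SLC7A11 were high in Doxy and low in both butyrate treatments.

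Of the 31 other members tested, 8 were called higher in Doxy/Ctl, beside 0.411% of all probes called higher, and their median change was 0.37 beside 0.02 for all probes. The count is given for completeness, since the pathway was picked from this comparison. SLC7A11, the cystine importer, stood 1.35 ± 0.24 higher, TRIB3, a pseudokinase that restrains ATF4 and DDIT3, 0.93 ± 0.07, and JDP2, a bZIP repressor, 0.85 ± 0.12. PSAT1 and PHGDH, consecutive enzymes of serine synthesis, stood 0.74 ± 0.09 and 0.72 ± 0.06 higher. GPT2, the mitochondrial alanine transaminase, stood 0.73 ± 0.09 higher, SESN2, a leucine sensor upstream of mTORC1, 0.68 ± 0.09, and ATF4 itself 0.45 ± 0.06. All 8 were higher in 6 of 6 experiments, which are those that gave the calls, so this adds no separate evidence. NUPR1 and SLC1A4 had changes of 1.13 ± 0.73 and 0.98 ± 0.54, which were not called. NUPR1 was higher in 6 of 6 experiments, by 0.97 to 1.41, with all Ctl and Doxy arrays well above background. Its SE is from the fit over all treatments, and its levels had SDs of 2.21 in NaB and 2.27 in DoxyNaB. The change of SLC1A4 ranged from -0.24 to 1.96 between experiments, and only 3 of its Ctl arrays were well above background. In place of 8, limma called 0 with arrays scaled to their median (10 at an unadjusted p under 0.05), 5 with normexp background correction and 5 without the pairing by experiment. Of all 18984 probes it called 4, 17 and 32 higher under these settings, in place of 78.

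With butyrate present, doxycycline raised DDIT3, DDIT4 and ASNS and lowered the transporters SLC38A2 and SLC1A5. DoxyNaB/NaB shares no array with Doxy/Ctl, so that here the 5 chosen genes could be tested like the rest. Of 36 members 3 rose, all of them among the 5 chosen, beside 0.611% of all probes, and 2 fell, beside 1.87%. The members' median change was 0.00 and that of all probes -0.03.

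DDIT3 rose by 1.58 ± 0.13 (2.99-fold, adjusted p = 4.13e-07), in 6 of 6 experiments, and the lowest DoxyNaB array was above the highest NaB array. DDIT4 rose by 0.74 ± 0.08 (1.67-fold, adjusted p = 1.78e-05), again in 6 of 6 experiments with no overlap. ASNS rose by 0.37 ± 0.08 (1.30-fold, adjusted p = 0.00607) in 5 of 6 experiments, with overlapping arrays. The ASNS call held under 8 of 23 alternative settings, with adjusted p from 0.000309 to 1.0, and it was lost when any experiment but the second was left out. CHAC1, at 0.29 ± 0.16 (adjusted p = 0.434), was not called on the probe shown, nor on its other probe, at 0.29 ± 0.08 (adjusted p = 0.0337), and both were higher in 6 of 6 experiments. PCK2, at 0.15 ± 0.10 (adjusted p = 0.54), was not called and was higher in 4 of 6.

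The members that fell in DoxyNaB/NaB were both amino acid transporters. SLC38A2, a sodium-coupled carrier of small neutral amino acids, lay at 3.31, 3.64 and 3.82 in Ctl, 3.30, 3.79 and 3.99 in Doxy, 2.65, 2.76 and 3.00 in NaB and 2.00, 2.13 and 2.41 in DoxyNaB. It fell by 0.64 ± 0.10 (adjusted p = 0.000496), and its other probe fell by 0.66 ± 0.12 (adjusted p = 0.00204). SLC1A5, the main glutamine carrier, lay at 1.92, 2.02 and 2.44 in Ctl, 2.24, 2.34 and 2.58 in Doxy, 1.74, 1.92 and 2.13 in NaB and 1.31, 1.40 and 1.57 in DoxyNaB. It fell by 0.49 ± 0.07 (adjusted p = 0.0001). Both fell in 6 of 6 experiments, and on the probes shown no DoxyNaB array reached the level of a NaB array. With arrays scaled to their median, the adjusted p of both was 1.0, at -0.39 for SLC1A5 and -0.54 for SLC38A2, and that of DDIT4 was 0.107, at 0.85.

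Within experiments 2 to 4, which shared a scan date, the changes of DDIT3, DDIT4, ASNS, SLC1A5 and SLC38A2 in DoxyNaB/NaB were 1.74, 0.69, 0.32, -0.55 and -0.70. Within experiments 5 and 6 they were 1.18, 0.78, 0.44, -0.37 and -0.53. The direction of each was the same in both sets, while of these 10 values that of DDIT3 in experiments 2 to 4 alone passed the test. Of all probes 39 passed it in experiments 2 to 4 and 3 in experiments 5 and 6. The other 31 members of the 36 lay between -0.59, for the dim probe of NUPR1, and 0.37, for that of SLC6A9, and were not called.

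**Figure D3:**
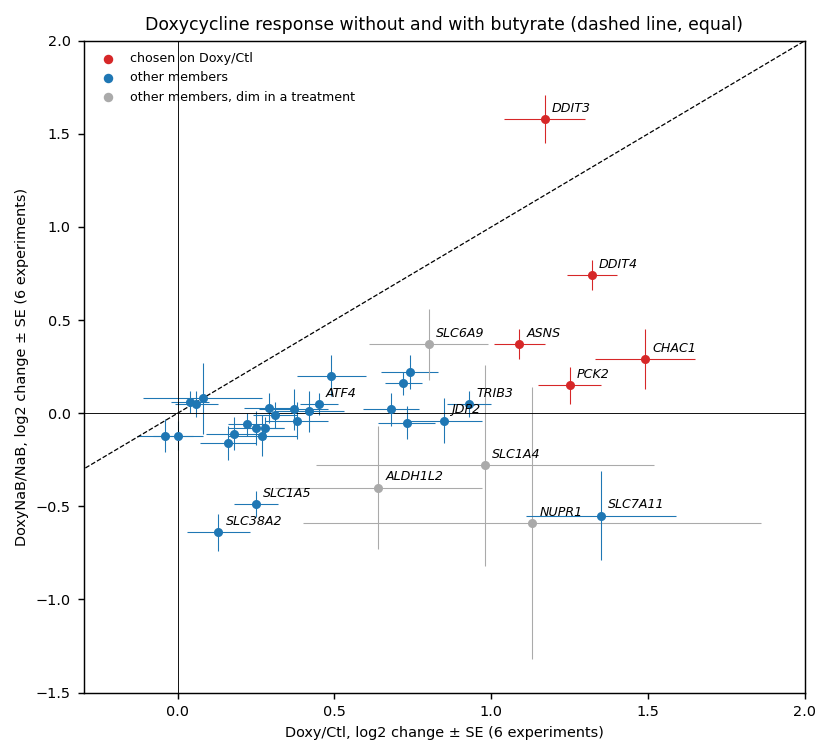
Response to doxycycline without butyrate (x axis, Doxy/Ctl) and with it (y axis, DoxyNaB/NaB), as log2 change ± SE over 6 experiments, for the 36 members tested; the dashed line marks equal responses. Red points were chosen for their value on the x axis, and grey points were well above background on fewer than 4 arrays of some treatment. DDIT3 lies above the line and DDIT4, ASNS, PCK2 and CHAC1 lie below it. Across the 36 genes, which are not independent replicates, Pearson's r was 0.336.

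The difference between these responses, the change with doxycycline without butyrate minus that with butyrate, is the interaction. It uses the arrays of Doxy/Ctl, from which the pathway was proposed, so the counts of the other members are a description. It is again no independent evidence for the chosen genes. For these it was 1.20 ± 0.23 in CHAC1, 1.10 ± 0.14 in PCK2, 0.72 ± 0.11 in ASNS, 0.58 ± 0.12 in DDIT4 and -0.41 ± 0.19 in DDIT3. Of the 31 others, 8 were called with a larger response without butyrate, beside 1.03% of all probes called in this direction, and their median was 0.40 beside 0.05. They were SLC7A11 at 1.89 ± 0.33, JDP2 at 0.89 ± 0.17, TRIB3 at 0.88 ± 0.10, GPT2 and SLC38A2 at 0.77 ± 0.13 and 0.77 ± 0.14, SLC1A5 at 0.74 ± 0.09, SESN2 at 0.67 ± 0.12 and PHGDH at 0.56 ± 0.09. For SLC1A5 and SLC38A2 the difference came with changes of 0.25 and 0.13 in Doxy/Ctl that did not pass the test and falls in DoxyNaB/NaB, and for the other 6 with a higher level in Doxy/Ctl and no call in DoxyNaB/NaB. Of the 31, 2 were called without experiment 4, 3 without experiment 3 or 5, 4 without experiment 2 or 6, and 5 without experiment 1. Of all probes 118 to 196 were called in either direction with an experiment left out, in place of 236.

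With butyrate more members fell than rose. Most probes on the array changed too, so the members' counts stand beside those of all probes. In NaB/Ctl, of the 31 members not chosen on Doxy/Ctl, 18 fell, beside 28.2% of all probes, and 8 rose, beside 40.0%. Their median was -0.72 against 0.17 for all probes. In DoxyNaB/Doxy, of the same 31, 21 fell, beside 29.7% of all probes, and 5 rose, beside 37.3%, with a median of -1.24 against 0.10. These comparisons share the Ctl or the Doxy arrays with the choice of the 5 genes, whose butyrate values are therefore given without a test. The pathway was proposed from those arrays, so the counts and medians of the other 31 members are not independent of that choice either. Without NUPR1, ALDH1L2, SLC1A4 and SLC6A9, whose probes were dim in some treatment, 17 of the remaining 27 fell and 7 rose in NaB/Ctl, and 20 fell and 4 rose in DoxyNaB/Doxy. The zero line depended on the scaling: scaled to the array median, the median of all probes was -0.58 in NaB/Ctl and -0.46 in DoxyNaB/Doxy. Under that scaling 21 of the same 31 members fell and 2 rose in NaB/Ctl, beside 8763 and 2425 of all 18984 probes. With the main scaling these were 18 and 8 members, beside 5350 and 7599 probes. In a bulk extract, fewer cells with a transcript and fewer copies per cell cannot be told apart.

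Markers of other cell types and of epithelium moved with butyrate. The summed level of the 5 leukocyte markers with a probe, relative to the 75th percentile, was 0.271 to 0.552 in Ctl and 0.824 to 1.15 in NaB, that of the 6 fibroblast markers 0.35 to 0.524 and 0.608 to 1.09, and that of the 4 endothelial markers 0.0975 to 0.236 and 0.19 to 0.762, while the 8 epithelial markers summed to 218 to 265 and 279 to 508. Of those tested in NaB/Ctl, all 3 leukocyte, 1 of 1 fibroblast and 1 of 2 endothelial markers rose, beside 40.0% of all probes. Of 7 epithelial markers 3 rose (CDH1, KRT8 and KRT19) and 3 fell (EPCAM, CDX2 and CLDN7), beside 40.0% and 28.2%. Most markers of other cell types were not well above background on every array. The median change of all probes in NaB/Ctl was 0.69 without the filter on dim probes, against 0.17 with it. In DoxyNaB/NaB, where 0.611% of all probes rose, CLDN7 rose by 0.69 ± 0.09 and the leukocyte marker CD68 by 0.55 ± 0.10. COL3A1, of fibroblasts, was well above background on 0 arrays of 24. The part of these markers in the results was not tested.

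Of the 7 transcription factors other than DDIT3, 2 rose and 4 fell in NaB/Ctl, beside 40.0% and 28.2% of all probes. The RNA of ATF4 lay at 5.26, 5.32 and 5.47 in Ctl, 5.64, 5.79 and 5.91 in Doxy, 4.24, 4.47 and 4.64 in NaB and 4.23, 4.57 and 4.75 in DoxyNaB. It fell by 0.89 ± 0.06 in NaB/Ctl (1.85-fold, adjusted p = 3.77e-10) and by 1.28 ± 0.06 in DoxyNaB/Doxy (adjusted p = 2.42e-12), with no overlap in either. ATF3, a stress-induced factor that dimerizes with ATF4 and with Jun, went the other way, at 0.41, 0.66 and 0.92 in Ctl, 0.54, 0.87 and 1.03 in Doxy, 2.78, 3.15 and 3.25 in NaB and 2.74, 2.99 and 3.04 in DoxyNaB. It rose by 2.43 ± 0.09 in NaB/Ctl (5.4-fold, adjusted p = 7.04e-14) and by 2.12 ± 0.09 in DoxyNaB/Doxy, and its other 3 probes rose by 1.76 to 2.86 in NaB/Ctl. DDIT3, chosen on Doxy/Ctl, was 1.85 ± 0.13 higher in NaB/Ctl and 2.26 ± 0.13 higher in DoxyNaB/Doxy.

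ATF5, a relative of ATF4 that is likewise controlled by upstream reading frames, lay at -0.16, 0.09 and 0.94 in Ctl, -0.14, 0.12 and 1.05 in Doxy, -2.03, -1.37 and -1.15 in NaB and -1.95, -1.43 and -0.70 in DoxyNaB. It fell by 1.68 ± 0.19 in both comparisons (adjusted p = 1.88e-07 in NaB/Ctl). CEBPG, a dimer partner of ATF4, lay at 0.44, 0.85 and 1.09 in Ctl, 1.08, 1.32 and 1.47 in Doxy, -0.58, -0.11 and 0.18 in NaB and -0.46, 0.13 and 0.27 in DoxyNaB. It fell by 0.96 ± 0.11 in NaB/Ctl (adjusted p = 3.77e-07) and by 1.26 ± 0.11 in DoxyNaB/Doxy. The related CEBPB lay at 3.18, 3.28 and 3.50 in Ctl, 3.46, 3.62 and 3.72 in Doxy, 3.55, 3.87 and 4.02 in NaB and 3.56, 3.77 and 3.94 in DoxyNaB. It rose by 0.50 ± 0.06 in NaB/Ctl (adjusted p = 4.14e-07), a change that became -0.25 when arrays were scaled to the median.

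JDP2 had the largest fall among the transcription factors in NaB/Ctl, from -0.35, -0.03 and 0.33 in Ctl to -2.38, -2.15 and -1.79 in NaB, beside 0.79, 0.83 and 0.95 in Doxy and -2.49, -2.14 and -1.88 in DoxyNaB. It fell by 2.15 ± 0.12 in NaB/Ctl (4.44-fold, adjusted p = 2.02e-11) and by 3.04 ± 0.12 in DoxyNaB/Doxy. Neither butyrate treatment overlapped one without butyrate, and NaB and DoxyNaB covered the same range. NUPR1, a small stress-induced nuclear protein, was dim on the butyrate arrays and was not called.

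Of the feedback and signalling genes, TRIB3 lay at 2.42, 2.49 and 2.62 in Ctl, 3.31, 3.39 and 3.71 in Doxy, 0.79, 0.91 and 1.17 in NaB and 0.79, 1.00 and 1.09 in DoxyNaB. It fell by 1.59 ± 0.07 in NaB/Ctl (3.0-fold, adjusted p = 1.05e-12) and by 2.46 ± 0.07 in DoxyNaB/Doxy (5.52-fold), and NaB and DoxyNaB covered nearly the same range. EIF4EBP1, which holds back cap-dependent translation, fell by 0.91 ± 0.09 and 1.24 ± 0.09. SESN2 lay at -1.42, -1.10 and -0.53 in Ctl, -0.67, -0.40 and -0.10 in Doxy, -0.47, -0.39 and 0.09 in NaB and -0.48, -0.32 and -0.08 in DoxyNaB. It rose by 0.76 ± 0.09 in NaB/Ctl (adjusted p = 3.21e-07), which became 0.01 (adjusted p = 0.979) with scaling to the median. Its change of 0.09 ± 0.09 in DoxyNaB/Doxy was not called and became -0.47 with that scaling. PPP1R15A, which directs the phosphatase that reverses eIF2 phosphorylation, rose by 0.54 ± 0.06 and 0.56 ± 0.06, values that became -0.21 and 0.00 with scaling to the median. The chosen genes DDIT4 and CHAC1 differed by 0.02 ± 0.08 and 0.28 ± 0.16 in NaB/Ctl, and were 0.56 ± 0.08 and 0.92 ± 0.16 lower in log2 in DoxyNaB than in Doxy; scaled to the median, the NaB/Ctl values became -0.73 and -0.47.

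Of the serine synthesis genes 1 rose and 1 fell in NaB/Ctl, beside 40.0% and 28.2% of all probes. PSAT1 fell by 1.35 ± 0.09 in NaB/Ctl (adjusted p = 1.37e-10) and by 1.88 ± 0.09 in DoxyNaB/Doxy, whereas PSPH, which completes serine synthesis, rose by 0.82 ± 0.07 (adjusted p = 9.84e-09) and 0.81 ± 0.07. Under median scaling PSPH was no longer called, at 0.07 (adjusted p = 0.801) and 0.25 (adjusted p = 0.329). PHGDH, the first enzyme, was not called in NaB/Ctl, at 0.10 ± 0.06, which became -0.65 with scaling to the median, and fell by 0.46 ± 0.06 in DoxyNaB/Doxy.

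All 3 mitochondrial folate and serine enzymes that pass one-carbon units toward formate fell in both butyrate comparisons, beside 28.2% and 29.7% of all probes. They are part of the group of 7 serine, glycine and one-carbon enzymes. Of these 7, 4 were called lower and 2 higher in NaB/Ctl, and 5 lower and 2 higher in DoxyNaB/Doxy, the dim ALDH1L2 among the higher. MTHFD1L lay at 1.62, 1.70 and 1.74 in Ctl, 1.71, 1.92 and 2.04 in Doxy, -0.32, -0.26 and 0.00 in NaB and -0.45, -0.27 and -0.13 in DoxyNaB. It had the largest fall of its group in NaB/Ctl, of 1.91 ± 0.06 (3.75-fold, adjusted p = 2.88e-14), and its 2 other probes fell by 1.50 and 1.68. MTHFD2 fell by 1.39 ± 0.10 and 1.80 ± 0.10, and SHMT2 by 0.72 ± 0.09 and 0.80 ± 0.09. ALDH1L2, which consumes one-carbon units in mitochondria, had a dim signal, at -7.44, -5.93 and -3.92 in Ctl, -7.06, -5.03 and -3.31 in Doxy, -4.48, -3.05 and -1.35 in NaB and -4.84, -3.86 and -0.90 in DoxyNaB. It was well above background on 3 Ctl, 4 Doxy, 6 NaB and 5 DoxyNaB arrays. Since it entered the tests through its NaB arrays alone, its difference of 2.84 ± 0.33 in NaB/Ctl is a description, and it became 0.81 with normexp background correction.

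Of the 4 other enzymes tested and not chosen on Doxy/Ctl, 2 rose and 2 fell in NaB/Ctl, beside 40.0% and 28.2% of all probes. In DoxyNaB/Doxy 1 rose and 2 fell, beside 37.3% and 29.7%. Those that fell were the enzymes of proline synthesis. PYCR1 lay at 4.29, 4.40 and 5.02 in Ctl, 4.63, 4.73 and 5.29 in Doxy, 2.89, 3.12 and 3.66 in NaB and 2.86, 3.12 and 3.57 in DoxyNaB. It fell by 1.33 ± 0.07 in NaB/Ctl (2.51-fold, adjusted p = 3.1e-12) and by 1.64 ± 0.07 in DoxyNaB/Doxy, and ALDH18A1 fell by 0.62 ± 0.08 and 0.74 ± 0.08. CTH, which releases cysteine from cystathionine, and GPT2 rose by 0.55 ± 0.09 and 0.55 ± 0.09 in NaB/Ctl, and both became -0.20 with scaling to the median. In DoxyNaB/Doxy CTH rose by 0.26 ± 0.09 (adjusted p = 0.00995), a call kept under 6 of 23 settings and turned to -0.30 with scaling to the median, and the change of -0.22 ± 0.09 in GPT2 was not called. The chosen ASNS was 0.71 ± 0.08 higher in NaB than in Ctl, or -0.04 with scaling to the median, and differed by -0.01 ± 0.08 between DoxyNaB and Doxy. PCK2 differed by 0.05 ± 0.10 in NaB/Ctl, or -0.70 with scaling to the median, and was lower by 1.05 ± 0.10 in log2 in DoxyNaB than in Doxy.

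Of the 8 transporters, 7 were called lower in DoxyNaB/Doxy, beside 29.7% of all probes, and 5 in NaB/Ctl, beside 28.2%, the dim SLC6A9 among them in both. SLC6A9, the glycine carrier, lay at -2.03, -1.83 and -1.42 in Ctl, -1.32, -0.97 and -0.63 in Doxy, -5.75, -5.23 and -4.61 in NaB and -5.64, -4.76 and -4.09 in DoxyNaB. All 6 Ctl and 6 Doxy arrays but only 1 NaB and 3 DoxyNaB arrays were well above background, so that its difference of -3.41 ± 0.19 in NaB/Ctl is a description. It became -1.58 with normexp background correction, and its other, dimmer probe, at -0.45 ± 0.54, was not called. SLC7A11 lay at -1.03, 0.43 and 0.69 in Ctl, 0.67, 1.48 and 2.14 in Doxy, -2.53, -2.11 and -1.44 in NaB and -3.19, -2.57 and -2.06 in DoxyNaB. It fell by 2.13 ± 0.24 in NaB/Ctl (4.38-fold, adjusted p = 2.04e-07) and by 4.02 ± 0.24 in DoxyNaB/Doxy (16.3-fold, adjusted p = 3.38e-11).

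SLC7A1, the carrier of arginine and lysine, fell by 1.02 ± 0.11 and 1.37 ± 0.11. SLC38A2 fell by 0.81 ± 0.10 and 1.58 ± 0.10. SLC3A2, the heavy chain that SLC7A11 and SLC7A5 share, fell by 0.41 ± 0.11 over the 5 experiments with a usable NaB spot (adjusted p = 0.00322, kept under 15 of 23 settings) and by 0.80 ± 0.11 in DoxyNaB/Doxy. SLC7A5, the leucine carrier, and SLC1A5 were not called in NaB/Ctl, at -0.30 ± 0.11 and -0.20 ± 0.07, and fell by 0.71 ± 0.11 and 0.94 ± 0.07 in DoxyNaB/Doxy. SLC1A4, a neutral amino acid carrier, was dim and was not called.

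XPOT, the exporter of tRNA from the nucleus and the 1 tested gene of the remaining 3, lay at 1.75, 2.20 and 2.23 in Ctl, 1.93, 2.45 and 2.63 in Doxy, 0.76, 1.16 and 1.21 in NaB and 0.89, 1.13 and 1.34 in DoxyNaB. It fell by 1.04 ± 0.08 in NaB/Ctl (2.05-fold, adjusted p = 1.43e-09) and by 1.30 ± 0.08 in DoxyNaB/Doxy, with no overlap.

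**Figure D4:**
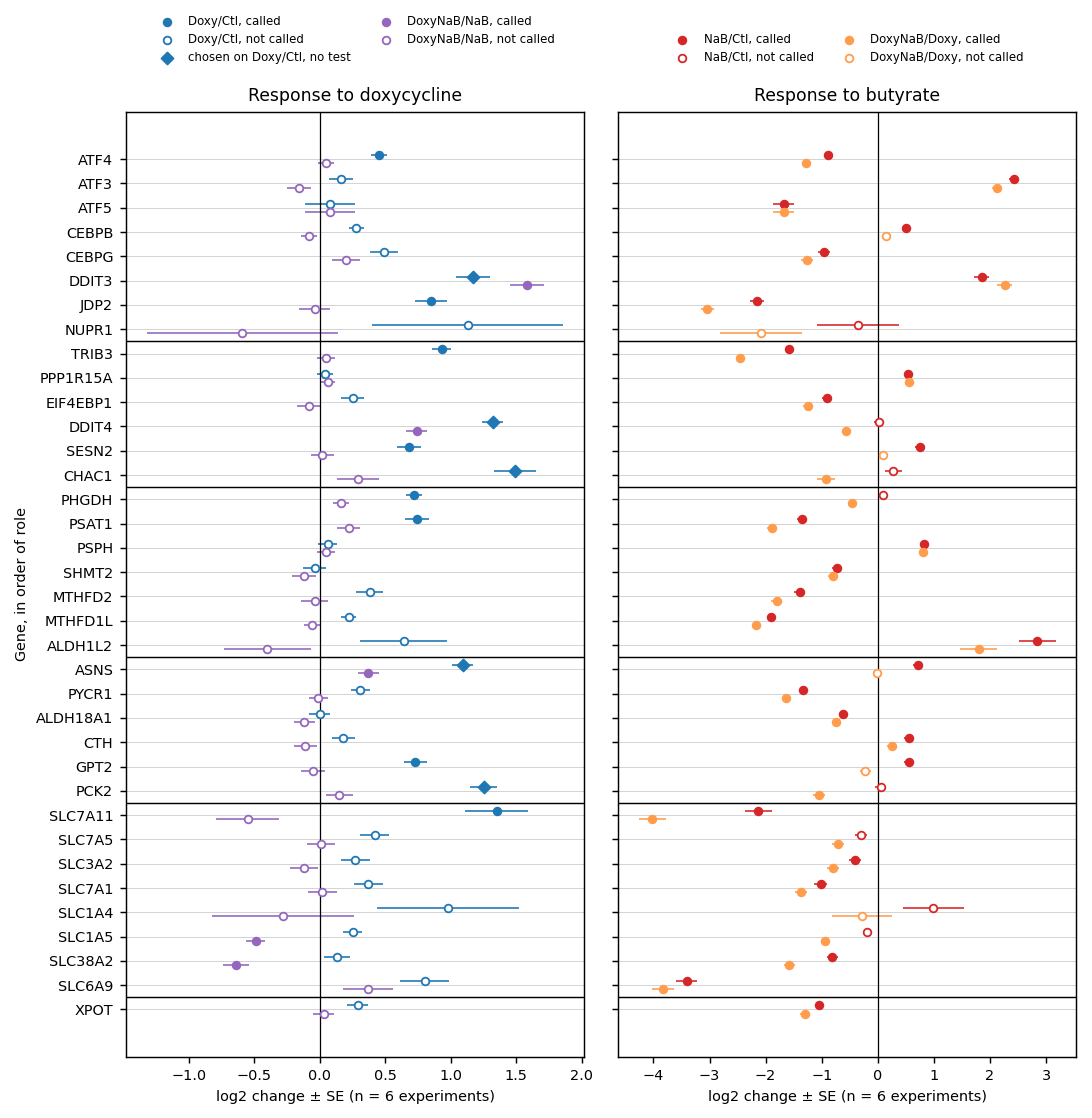
Log2 change ± SE of the 36 members tested (rows, in order of role, black lines between groups) with doxycycline (left panel, Doxy/Ctl blue and DoxyNaB/NaB purple) and with butyrate (right panel, NaB/Ctl red and DoxyNaB/Doxy orange), over 6 experiments, or 5 for SLC3A2 where NaB is involved. Filled circles were called at an adjusted p under 0.01, open circles were not, and diamonds are the 5 genes chosen on Doxy/Ctl, in that comparison, with no test. In the right panel these 5 genes have circles like the rest, but their values there are a description. With butyrate present, 3 genes rose and 2 fell with doxycycline.

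Other genes around the pathway were counted in the same way, and their counts in NaB/Ctl stand beside 40.0% of all probes higher and 28.2% lower. Those with doxycycline stand beside 0.411% higher in Doxy/Ctl, and 0.611% higher and 1.87% lower in DoxyNaB/NaB. At these shares a count of 0 in a list of this size does not set its genes apart from the other probes. The share of all probes at an unadjusted p under 0.05 in limma was not counted. Of the kinases that phosphorylate eIF2, eIF2 itself and its exchange factor eIF2B, 14 of 16 were tested and limma called 0 in either doxycycline comparison, with 4 and 2 at an unadjusted p under 0.05 in Doxy/Ctl and DoxyNaB/NaB, whereas in NaB/Ctl 4 rose and 6 fell (28.6% and 42.9%), led by EIF2AK3 (PERK, the kinase of the endoplasmic reticulum) at 1.45 ± 0.19 and EIF2S2 (eIF2 beta) at -1.18 ± 0.10. Of 20 further genes linked to ATF4, 17 were tested. In Doxy/Ctl 2 were called higher, GDF15 and SLC43A1, named after their values were seen, beside 0.411% of all probes. In DoxyNaB/NaB GDF15, a secreted stress hormone, rose by 0.75 ± 0.09 (adjusted p = 1.84e-05) and TRIB1, a relative of TRIB3, fell by 0.35 ± 0.07 (adjusted p = 0.0057), while in NaB/Ctl 7 rose and 5 fell (41.2% and 29.4%, close to the shares of all probes), led by FYN, a tyrosine kinase, at 1.91 ± 0.07 and MAP1LC3B, an autophagosome protein, at 1.78 ± 0.07.

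All 20 cytosolic aminoacyl-tRNA synthetases were tested. In Doxy/Ctl 5 were called higher (AARS1, CARS1, GARS1, SARS1 and YARS1, named after their values were seen), beside 0.411% of all probes, and in DoxyNaB/NaB 1, AARS1, beside 0.611%, by 0.29 ± 0.05 (adjusted p = 0.00275). In NaB/Ctl 3 rose and 10 fell, led by SARS1 at 1.01 ± 0.08 and IARS1 at -0.95 ± 0.14. The chaperones and sensors of the endoplasmic reticulum were counted apart, with 0 of 19 called by limma in either doxycycline comparison, 5 and 2 at an unadjusted p under 0.05, and 10 higher and 3 lower in NaB/Ctl (52.6% and 15.8%), led by SEL1L, a degradation factor, at 1.74 ± 0.18 and XBP1, the transcription factor of the unfolded protein response, at -1.11 ± 0.07. Of 12 mitochondrial chaperones and proteases limma called 0 with doxycycline, also at an unadjusted p under 0.05, and 9 fell and 1 rose in NaB/Ctl, led by HSPE1 at -1.93 ± 0.09 and HSPD1 at -1.22 ± 0.08, the mitochondrial chaperonin pair. The counts of 0 in both lists stand beside 0.411% of all probes higher in Doxy/Ctl, and 0.611% higher and 1.87% lower in DoxyNaB/NaB.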

How the data were processed

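Per the labels and the file headers, RNA of 24 samples was hybridised to one-colour Agilent arrays, and the authors deposited the scanner output of Feature Extraction 9.5.3.1, whose processed signal is a background-subtracted intensity with probe coordinates of NCBI36. Spots flagged as outliers were left out, each intensity was divided by the array's 75th percentile over non-control spots and taken as log2, and spots of a probe were averaged, which gave 34127 probes. The number of arrays limits the precision. Comparisons were fitted in limma 3.58.1 (R 4.3.3; lmFit and eBayes) on all 24 arrays with the experiment as a block, following the paired test that the methods name, with Benjamini-Hochberg adjustment over 18984 probes. The arrays of experiments 2 to 6 shared a slide within an experiment, and deviations from the treatment means correlated between arrays of an experiment at 0.219 to 0.853, except NaB and DoxyNaB of experiment 3 at -0.224. P-values measure the spread between 6 experiments on 1 clone. Scripts were tested on simulated data. The members and gene lists were chosen with earlier results of these data known. Full values were given for the 5 chosen members, ATF4, ATF3, ATF5, CEBPB and CEBPG, and for the member of each role group with the largest called rise and fall in DoxyNaB/NaB and in NaB/Ctl, and from each other list 2 genes per comparison were named. Alternatives covered background correction, scaling, probe filters, blocking, the methods' t-test, averaging of probes, scans and each experiment left out. Promoters were RefSeq windows of GRCh38.p14.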

Additional observations from a re-analysis of the deposited data

Results flagged for a closer look

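Of 144 sets of levels, 1 for each tested member and treatment, 17 had an array whose gap to the nearest other, as a share of the range, was above the 95% limit of Dixon's test for its number of arrays; chance flags about 1 in 20 groups. Of these arrays 13 were of experiment 1, 6 in Ctl, 5 in Doxy and 2 in NaB. In Ctl the array of experiment 1 was highest for CHAC1 (gap 0.73), PPP1R15A (0.71), PYCR1 (0.68) and ATF5 (0.66), and lowest for XPOT (0.71) and MTHFD2 (0.64). In Doxy it was highest for PPP1R15A (0.75), PYCR1 (0.72) and SHMT2 (0.70), and lowest for PSAT1 (0.74) and MTHFD2 (0.73). In NaB it was highest for SESN2 (0.78) and PPP1R15A (0.77). The other gaps were those of the highest array, experiment 5, for DDIT3 in NaB (0.65) and ASNS in Doxy (0.64), and of the lowest array, experiment 2, for SLC7A1 (0.69) and CEBPG (0.68) in DoxyNaB. That DoxyNaB array had the highest negative controls, at 249 signal units, and its part in these levels was not tested.

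The response to doxycycline was larger without butyrate than with it, by the interaction in limma, for 8 members not chosen on Doxy/Ctl. The difference in log2 was 1.89 for SLC7A11, 0.89 for JDP2, 0.88 for TRIB3, 0.77 for GPT2, 0.77 for SLC38A2, 0.74 for SLC1A5, 0.67 for SESN2 and 0.56 for PHGDH. It was above 0 in 6 of 6 experiments for each of them, which are the experiments that gave the calls. It uses the Doxy and Ctl arrays from which the pathway was proposed.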

How the results depend on the processing

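With 6 experiments on 1 clone, calls near the threshold moved with the settings, and the dim probes of NUPR1, ALDH1L2, SLC1A4 and SLC6A9 had no firm level in every treatment. The alternative with the percentile over probes was chosen after seeing the data. Counts in DoxyNaB/NaB, NaB/Ctl and DoxyNaB/Doxy are over all 36 members, the 5 chosen ones included, and those in Doxy/Ctl and the interaction over the other 31. Since NaB/Ctl and DoxyNaB/Doxy share arrays with the choice of the pathway, their counts are not independent of it, and the chosen genes in their main counts are a description. These are 2 higher in NaB/Ctl, and 1 higher and 3 lower in DoxyNaB/Doxy. Leaving out each experiment in turn gave 4 to 5 calls in DoxyNaB/NaB, 27 to 29 in NaB/Ctl, 29 to 32 in DoxyNaB/Doxy, 6 to 8 in Doxy/Ctl and 2 to 5 in the interaction.

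Without the replicate block by experiment, the calls were 4, 26, 27, 5 and 3 in DoxyNaB/NaB, NaB/Ctl, DoxyNaB/Doxy, Doxy/Ctl and the interaction, against 5, 28, 30, 8 and 8 with the pairing. Of all probes 178, 10268, 10139, 36 and 85 were called, against 471, 12949, 12717, 95 and 236 with the pairing. With normexp the members' calls were 3 in DoxyNaB/NaB, 5 in Doxy/Ctl and 1 in the interaction, beside 109, 21 and 43 of all probes. With scaling to the median the members' calls were 1, 0 and 0 (10 and 7 of the last pair of comparisons at an unadjusted p under 0.05 in limma), beside 46, 5 and 9 of all probes. With a further fold over 2 the members' calls were 1 in DoxyNaB/NaB, 14 in NaB/Ctl, 19 in DoxyNaB/Doxy, 1 in Doxy/Ctl and 1 in the interaction. The methods' t-test with adjusted p gave 1, 1 and 0 in DoxyNaB/NaB, Doxy/Ctl and the interaction (18 in the last at an unadjusted p under 0.05), and its unadjusted p gave 18 in Doxy/Ctl. Of all probes that test called 25, 10 and 0, and 1344 in Doxy/Ctl by its unadjusted p. Without a filter on dim probes 4 members were called in the interaction, beside 144 of all probes. With only the arrays of the groups compared 2 were called in DoxyNaB/NaB, beside 131 of all probes. In experiments 2 to 4 alone limma called 1, 0 and 0 in DoxyNaB/NaB, Doxy/Ctl and the interaction (14 and 12 in the last pair at an unadjusted p under 0.05), beside 39, 3 and 5 of all probes. In experiments 5 and 6 alone it called 0, 0 and 0 (7, 17 and 15), beside 3, 0 and 0 of all probes. Fewer arrays entered these fits, and for the other settings the cause was not tested.

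Among changes called with the main settings or with the alternative, directions turned under scaling to the median. In NaB/Ctl the changes became -0.25 for CEBPB, -0.21 for PPP1R15A, -0.73 for DDIT4, -0.65 for PHGDH, -0.04 for ASNS, -0.20 for CTH, -0.20 for GPT2 and -0.70 for PCK2, and in DoxyNaB/Doxy 0.00 for PPP1R15A and -0.30 for CTH. Signs of changes called in neither case turned under this and other settings, as for CHAC1 in NaB/Ctl, at -0.47 with scaling to the median, and NUPR1, at 1.53 in experiments 2 to 4. Of the members' calls in NaB/Ctl 11.5% were higher with scaling to the median, against 35.7% with the main settings. Of all probes called, 21.7% were higher with that scaling, against 58.7%.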
